A study of Homo sapiens with 9 samples.

Results

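The genes described here are 30 known targets of p53, a stress-responsive transcription factor. The rule takes established targets by name and uses no measured value, though the list was drawn up with earlier results of these data known, and all 30 were found among the 18970 gene symbols of both count tables. p53 is held low in unstressed cells by MDM2, which marks it for destruction. DNA damage, ribosomal stress or other insults release it, and it then switches on genes that stop the cell cycle, repair DNA, alter metabolism or kill the cell. MDM2 is itself a target, so the pathway restrains its own activity. In the neural crest, too much p53 activity is known to cause craniofacial defects.

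The cells were cranial neural crest cells (CNCCs) at passage P4, made from H9, a human embryonic stem cell line in wide use. Both alleles of SOX9, a transcription factor of neural crest and cartilage, carried a degradation tag together with a fluorescent protein and an epitope. The small molecule dTAGV-1 brings the tagged SOX9 protein to a ubiquitin ligase. The 3 groups were 0h (no dTAGV-1, with DMSO per the study's methods), 3h and 24h of 500 nM dTAGV-1, and the relative SOX9 level in the labels is 100% for 0h samples and 0% for all others. Every group contained 1 sample from each of 3 cultures, S9CC13_R6, S9CC47_R5 and S9CC47_R6, which combine 2 clones of the tagged line (S9CC13 and S9CC47) with 2 differentiation batches (R5 and R6). All 9 samples carried the tag and all took up 4-thiouridine (4sU, 100 uM) for 2 h before collection. Cells without the tag given dTAGV-1 were not analysed here, so effects of dTAGV-1 by itself cannot be told apart from the effect of SOX9 loss, whereas 4sU was the same in all groups.

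In SLAM-seq the incorporated 4sU is alkylated and read as a T>C conversion, so that T>C reads come mostly from RNA made during the last 2 h. Total reads count labelled and older RNA together, and T>C reads are a subset of them. Libraries held 16955633 to 28782678 total reads and 3130673 to 5475800 T>C reads. T>C reads made up 15.9% to 21.3% of a library. The lowest share was in the 3h library of S9CC13_R6, which was also the lowest of the 9 libraries in T>C share for 25 of the 30 members, and counts of calls over the members are given below with and without it. All 9 cranial neural crest markers examined (TWIST1, TFAP2A and others) were above 1 CPM, and their sum rose from 3314 to 3358 CPM at 0h to 4316 to 4660 CPM at 24h. Of 5 pluripotency markers, POU5F1, NANOG and TDGF1 stayed under 1 CPM in every library, while LIN28A and DPPA4 brought the sum to 349.8 to 414 CPM at 0h and 281 to 306 CPM at 24h. The sum of 4 chondrocyte markers went from 30.02 to 39.99 CPM at 0h to 20.7 to 24.2 CPM at 24h, with ACAN, MATN3 and CHAD under 1 CPM in every library, and that of 4 glia and Schwann cell markers from 2.24 to 4.90 CPM to 0.229 to 0.895 CPM, with SOX10 and FOXD3 under 1 CPM. The part of these shifts in the results below was not tested. In bulk RNA, fewer cells that express a gene and less RNA per cell cannot be told apart.

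p53 acts through a response element made of a pair of 10-base half-sites. The window from 250 bases before to 50 bases after the annotated start was searched for the p53 consensus response element by its name, on both strands at once because the half-site is its own reverse complement, with a spacer of 0 to 13 bases, at most 2 mismatches and the C and G at the core of each half-site kept. RefSeq (GRCh38.p14) gave a window for 25 of the 30 members, and the element was found in 2 of them (8%), AEN and FDXR. Of the windows of all protein-coding genes with one, 384 of 14609 (2.63%) held it. Both are shown because these genes return below, AEN as the member with the highest T>C share and both as genes with lower reads at 24h. Capitals mark the half-sites.
AEN: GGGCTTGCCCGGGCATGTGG
FDXR: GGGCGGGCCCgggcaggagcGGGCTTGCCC
The AEN match lies at chr15:88621306-88621325 (plus strand), with its first base at position -34 from the annotated start, a spacer of 0 and 2 mismatches. The FDXR match lies at chr17:74872996-74873025 (minus strand), with its first base at position -31 from the RefSeq start, a spacer of 10 and 2 mismatches. It lies inside the FDXR gene as placed by GENCODE (74862497 to 74873031), whose start differs. A match is a sequence description, and p53 binding was not measured. The windows are short, and for the other members with a window the search says only that these letters are not in it.

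The first question was whether new RNA of p53 targets changed soon after SOX9 was degraded. At 3h no member passed the test in T>C reads (DESeq2, adjusted p under 0.1), against 1.79% of the 12037 genes tested, and edgeR called 0. An unadjusted p under 0.05 was found for 882 of the 12037 genes and for 1 member, SPATA18 (log2 fold change -1.15, SE 0.569, adjusted p = 0.665). The median log2 fold change of the 30 was -0.05, with 13 above and 17 below 0, beside a median of -0.01 over all genes. In total reads at 3h the count was also 0, against 1.89% of 11710 genes, by DESeq2 and by edgeR alike. Here 962 of the 11710 genes had an unadjusted p under 0.05. Among members 3 did, CDKN1A (0.21, SE 0.0888, adjusted p = 0.37), CCNG2 (0.35, SE 0.173, adjusted p = 0.571) and TRIAP1 (-0.16, SE 0.0785, adjusted p = 0.581). The counts were 0 as well without the 3h library of S9CC13_R6.

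At 24h, 4 of 30 members (13.3%) were called in T>C reads, 1 higher (PLK2) and 3 lower (SPATA18, TRIAP1 and AEN), where 4.98% of all genes tested were called. An unadjusted p under 0.05 was reached by 7, beside 1633 of all 12037 genes, and edgeR called 5, the same 4 and GDF15. The median was 0.01 over the members and 0.00 over all genes, with 16 members above and 14 below 0. In total reads 8 members (26.7%) were called, 5 higher (PLK2, GDF15, CCNG1, TIGAR and GADD45A) and 3 lower (SPATA18, FDXR and TRIAP1), where 15.0% of all genes were called. Their median was 0.06 beside 0.00 over all genes. Every one of the 9 members called in either measure had the same sign in both at 24h. The measures are not independent, since T>C reads are part of total reads. Each fit without 1 culture still held terms for time and a surrogate variable, and for batch unless S9CC47_R5 was left out. With so few samples, little was left to measure the spread. A call lost there therefore does not show that a change rests on the culture left out. Without S9CC13_R6 no member was called at 24h in either measure, without S9CC47_R6 none in T>C reads and 1 (PLK2) in total reads, and without S9CC47_R5, which leaves batch R6 alone, PLK2 in T>C reads and 4 members in total reads. Without the 3h library of S9CC13_R6, PLK2 alone was called in T>C reads, and PLK2 and SPATA18 in total reads.

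**Figure D1:**
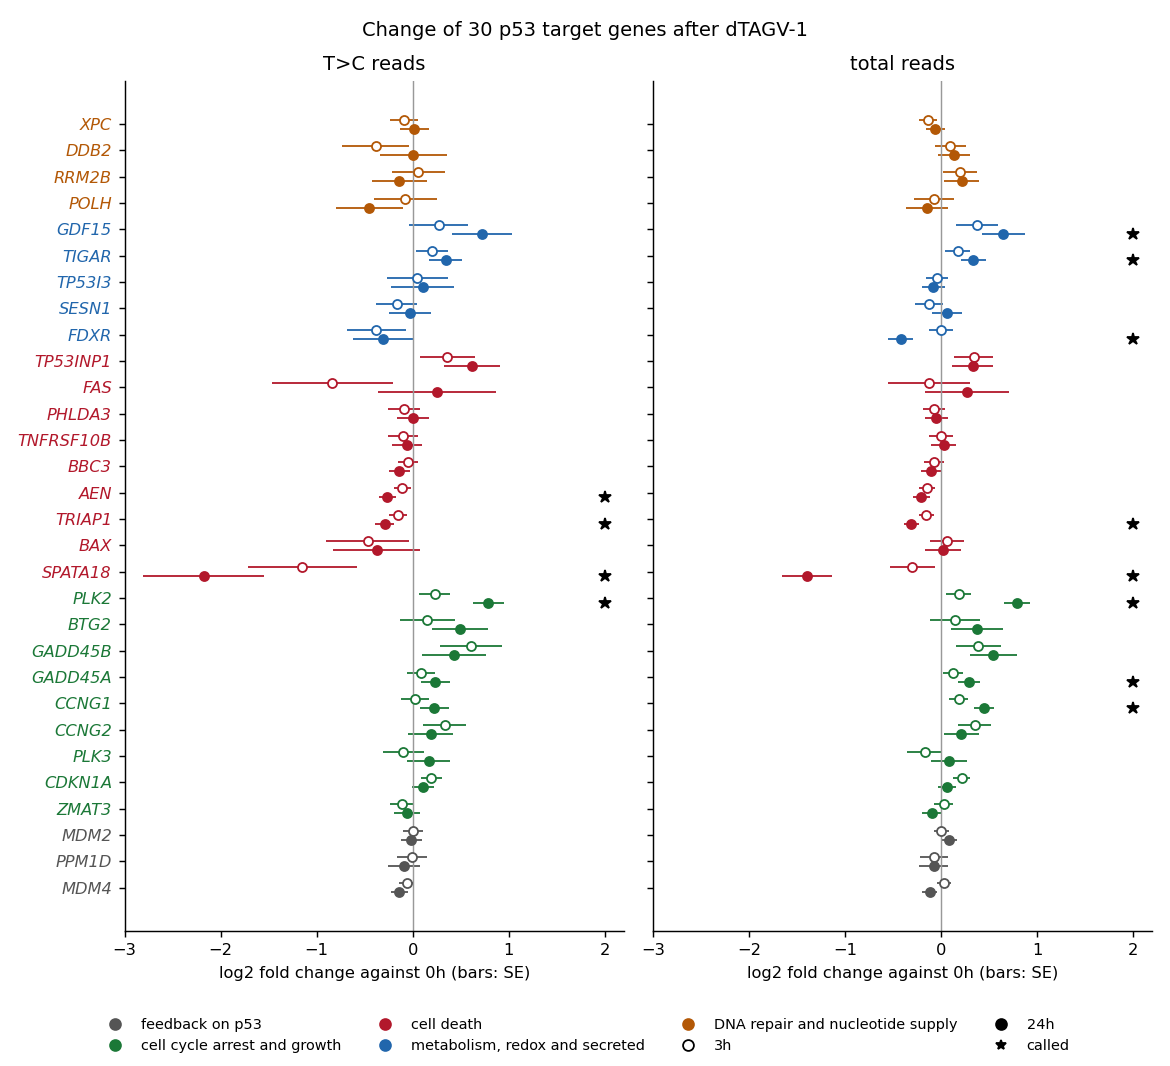
Log2 fold change against 0h (x axis, bars show the SE) of the 30 members in T>C reads and in total reads, at 3h (open circles) and 24h (filled circles), coloured by role; stars mark members called by DESeq2 at an adjusted p under 0.1 (n = 3 cultures a group). No 3h value is starred, and the 24h stars fall on 4 members in T>C reads and 8 in total reads, with both rises and falls.

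Feedback on p53 is carried in this set by MDM2, its ubiquitin ligase, MDM4, a relative that blocks its activity, and PPM1D, a phosphatase that reverses damage signalling. None of these 3 passed the test in any contrast of either measure. MDM2 (chromosome 12, 68808177 to 68845544, plus strand, hg38) had 886, 1019 and 817 normalized T>C reads at 0h in S9CC13_R6, S9CC47_R5 and S9CC47_R6. At 3h the values were 877, 931 and 889, and at 24h 819, 982 and 931, with cultures ordered as before here and throughout. The groups overlapped at both times. The log2 fold change of MDM2 in T>C reads was 0.00 at 3h (95% interval -0.20 to 0.20, DESeq2 adjusted p = 0.998) and -0.01 at 24h (interval -0.22 to 0.20, adjusted p = 0.983), and its sign changed with the covariates used. In total reads MDM2 stood at 0.08 at 24h (SE 0.0843, adjusted p = 0.609). The last exon of MDM2 lies over CPM on the opposite strand, and whether the counting used strand was not stated.

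MDM4 had 1769, 1693 and 1678 normalized T>C reads in the 0h samples, 1691, 1560.0 and 1691 at 3h, and 1587, 1538 and 1509.9 at 24h. Its 3 values at 24h lay below all 3 at 0h, but the difference of -0.14 (interval -0.31 to 0.03, adjusted p = 0.525) did not pass the test. PPM1D had 321, 405 and 335 normalized T>C reads in the 0h samples, 205, 341 and 456 at 3h, and 426, 321 and 417 at 24h, a wide spread in which no group stood apart (24h against 0h -0.09, SE 0.165, adjusted p = 0.9). The sign of this difference turned in 7 of 17 other settings (0.14 with the replicate block).

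The largest role was cell cycle arrest and growth control, with 9 members. At 24h 1 of them (11.1%, beside 4.98% of all genes) was called higher in T>C reads and 3 (33.3%, beside 15.0%) in total reads. None was called lower, and 8 of 9 log2 fold changes were above 0 in each measure, with medians of 0.22 and 0.29. Without the 3h library of S9CC13_R6 only PLK2 was still called in each measure, and CCNG1 and GADD45A lost their calls in total reads. CDKN1A encodes p21, the inhibitor of cyclin-dependent kinases and the classical readout of p53. Normalized T>C reads of CDKN1A were 835, 797 and 828 at 0h, 975, 1194 and 778 at 3h, and 849, 921 and 743 at 24h. At 3h S9CC13_R6 and S9CC47_R5 were above all 0h samples while S9CC47_R6 was below them, and at 24h the groups overlapped. The difference was 0.20 for 3h (interval -0.02 to 0.41, adjusted p = 0.788) and 0.11 for 24h (interval -0.12 to 0.34, adjusted p = 0.788). At 24h the upper bound of this interval corresponds to less than the rise measured for PLK2.

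PLK2 (chromosome 5, 58453982 to 58460139, minus strand), a polo-like kinase active in G1, was the member with the clearest change. It had 308, 438 and 232 normalized T>C reads in the 0h samples, 378, 431 and 328 at 3h, and 548, 559.7 and 518 at 24h. All 24h samples lay above all samples of the earlier times, and the spread between cultures was narrower at 24h (SD 21.6) than at 0h (SD 104). T>C reads rose by 0.79 (SE 0.165, adjusted p = 0.000154), or 1.73-fold, in 3 of 3 cultures. Total reads were 509.8, 725 and 449 at 0h, 678, 718 and 530.1 at 3h, and 960.2, 979 and 824 at 24h, a rise by 0.79 (SE 0.136, adjusted p = 4.13e-07). In T>C reads the call was lost without S9CC13_R6 (0.50, adjusted p = 1) and without S9CC47_R6 (0.59, adjusted p = 0.915), and in total reads without S9CC13_R6 (0.39, adjusted p = 1).

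PLK2 was also higher at 24h than at 3h in total reads, by 0.61 (SE 0.145, adjusted p = 0.00182), a call lost with the replicate block and 1 surrogate variable (0.42, adjusted p = 0.338). In T>C reads the same difference was 0.56 (SE 0.178, adjusted p = 0.131). It was past the threshold with the culture as a replicate block (0.53, adjusted p = 0.0353) and by edgeR (0.56, adjusted p = 0.0357). No member passed the test in T>C reads between 3h and 24h in the fit with batch and surrogate variable, where 1.14% of all genes did. There 1 member, PLK2, had an unadjusted p under 0.05, beside 980 of 12037 genes.

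CCNG1 (chromosome 5, 163437569 to 163446151, plus strand) encodes cyclin G1, which recruits a phosphatase to MDM2. Total reads of CCNG1 were 1269.9, 1781 and 1341 at 0h, 1383, 1562 and 1779.9 at 3h, and 2047, 1925 and 2573 at 24h. Each 24h sample exceeded every sample of 0h and 3h. Total reads rose by 0.44 (SE 0.103, adjusted p = 0.000514), or 1.36-fold. Without S9CC13_R6 the fitted difference was -0.0014 (adjusted p = 1), and without S9CC47_R6 it was 0.58 (adjusted p = 0.105). Yet normalized total reads rose from 1781 to 1925 in S9CC47_R5 and from 1341 to 2573 in S9CC47_R6. The rise was thus not particular to S9CC13_R6. T>C reads of CCNG1 were 229, 309.6 and 289 at 0h, 219.6, 275 and 303 at 3h, and 334, 322 and 419 at 24h. They too did not overlap between 24h and 0h, yet the difference of 0.22 (SE 0.150, adjusted p = 0.579) was not called.

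GADD45A (chromosome 1, 67685201 to 67688334, plus strand), a stress sensor that inhibits the mitotic cyclin-dependent kinase, had 803, 766 and 892 total reads after normalization at 0h, 908, 909 and 867 at 3h, and 914, 1045 and 1052 at 24h. The 24h samples were above all earlier ones, though by little. The rise of 0.29 (SE 0.112, adjusted p = 0.0772) was lost with the replicate block (0.29, adjusted p = 0.113) and without each culture in turn (0.18 to 0.52). In T>C reads GADD45A had 271, 320.4 and 324 at 0h, 273, 358 and 319.7 at 3h, and 317, 410.2 and 425 at 24h, with overlapping groups (0.24, SE 0.151, adjusted p = 0.543).

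The other members of this role were not called in either measure. GADD45B, a paralogue of GADD45A, stood at 0.61 (SE 0.321, adjusted p = 0.732) in T>C reads after 3h. After 24h the value was 0.43 (SE 0.337, adjusted p = 0.663). In total reads at 24h it stood at 0.54 (SE 0.244, adjusted p = 0.142), which edgeR called (0.53, adjusted p = 0.0975). BTG2, an antiproliferative cofactor of mRNA deadenylation, stood at 0.50 in T>C reads at 24h (SE 0.293, adjusted p = 0.481). CCNG2, PLK3 and ZMAT3 lay between -0.06 and 0.19 at 24h in T>C reads.

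**Figure D2:**
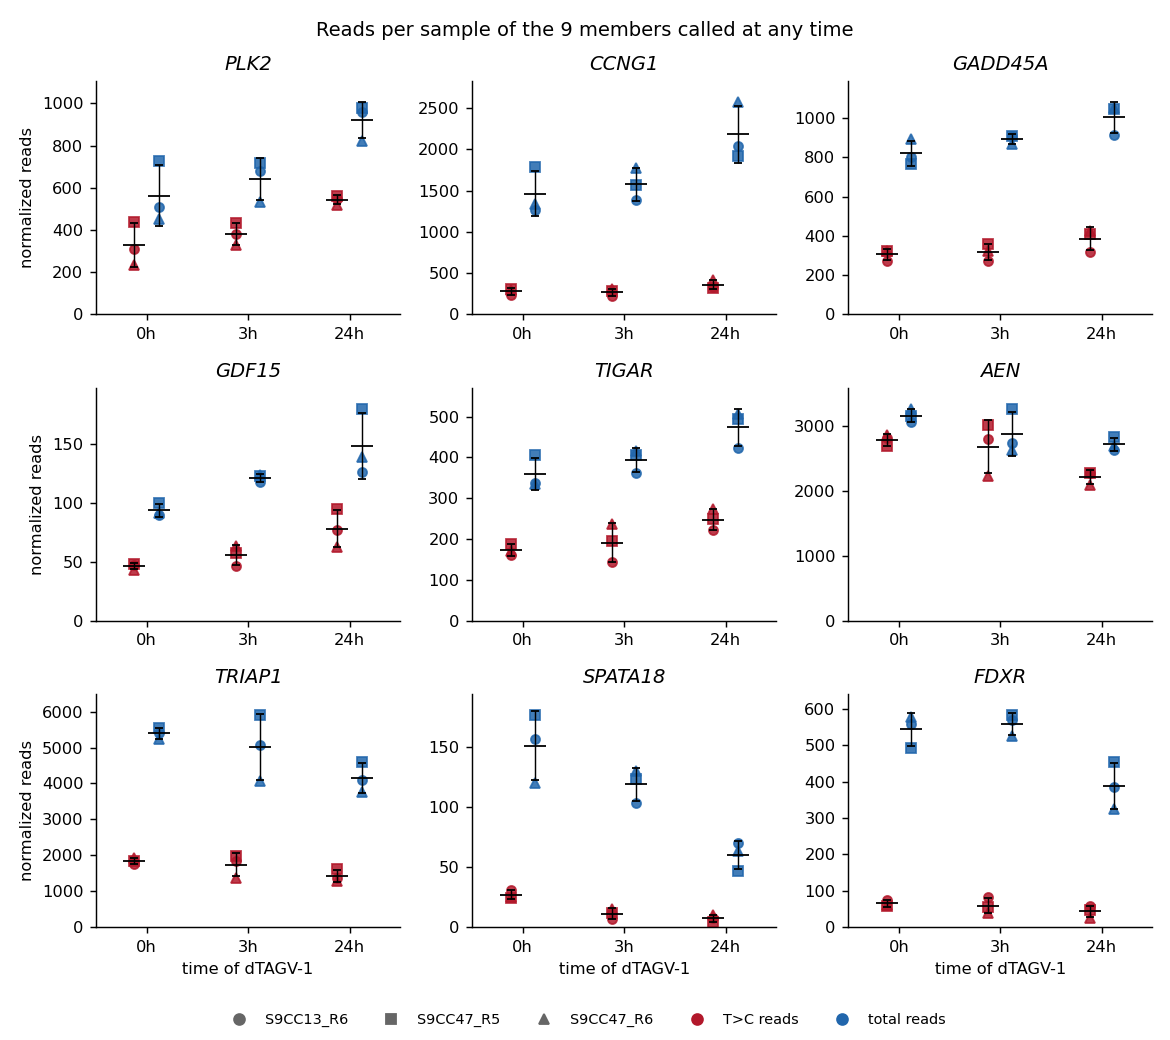
Normalized reads (y axis, counts divided by size factors, starting at 0) at 0h, 3h and 24h of dTAGV-1 for the 9 members called in any contrast. Red symbols are T>C reads and blue symbols total reads, symbol shapes mark the 3 cultures, and black bars give the mean and SD (n = 3). PLK2 and CCNG1 in total reads stand above both earlier times at 24h, and SPATA18 falls from a mean of 151 to 59.9 total reads.

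Cell death was the other role with 9 members. In T>C reads at 24h 3 of them fell and none rose (33.3%, beside 4.98% of all genes called), and in total reads 2 fell and none rose (22.2%, beside 15.0%). Of the 3 calls in T>C reads none was left without the 3h library of S9CC13_R6, and of the 2 in total reads SPATA18 was. The members that fell do not form one branch of this role. SPATA18 (Mieap) acts in the clearance of damaged mitochondria, TRIAP1 is a small protein known to counter apoptosis, and AEN is a nuclease that acts in apoptosis. The classical killers BBC3 (PUMA), BAX, FAS and TNFRSF10B (DR5) had log2 fold changes in T>C reads at 24h of -0.14, -0.37, 0.25 and -0.06, none of them called. FAS had a mean of only 27 total reads at 0h, and its interval in T>C reads at 24h ran from -0.96 to 1.46.

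SPATA18 (chromosome 4, 52051304 to 52097299, plus strand) had the largest change of any member. Its normalized total reads were 156, 176 and 120.1 at 0h, 103, 123 and 129.6 at 3h, and 69.6, 47 and 63.3 at 24h. All 24h samples lay below all others. Total reads fell by 1.40 on the log2 scale (SE 0.258, adjusted p = 3.39e-06), to a fitted 0.38 of the 0h level, and they were lower at 24h than at 3h by a log2 fold change of -1.10 (SE 0.277, adjusted p = 0.00431). T>C reads of SPATA18 were few, with raw counts of 30, 20 and 33 at 0h, 5, 14 and 13 at 3h, and 8, 4 and 14 at 24h. Both later groups lay below the 0h samples. The log2 fold change in T>C reads was -1.15 for 3h (adjusted p = 0.665) and -2.18 for 24h (SE 0.633, adjusted p = 0.0215). The T>C call at 24h was lost when any 1 culture was left out, with values from -2.29 to -2.12, and without the 3h library of S9CC13_R6 (-2.01, adjusted p = 0.109). The total read call was lost without S9CC13_R6 (-2.00, adjusted p = 0.145) and without S9CC47_R6 (-1.18, adjusted p = 0.415).

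TRIAP1 (chromosome 12, 120443964 to 120446384, minus strand) had 1754, 1831 and 1916 normalized T>C reads in the 0h samples, 1842, 1992 and 1372 at 3h, and 1366, 1606 and 1279 at 24h. The 24h samples were below all 0h samples, and at 3h only S9CC47_R6 was. T>C reads fell by 0.29 (SE 0.0983, adjusted p = 0.0751) and total reads by 0.31 (SE 0.082, adjusted p = 0.00322). Total reads were 5412, 5549 and 5241 at 0h, 5078, 5895 and 4080.5 at 3h, and 4105, 4601 and 3749 at 24h, with S9CC13_R6 and S9CC47_R6 below the 0h samples at 3h. Without 1 culture the T>C call was lost in each case (-0.32 to -0.18), as was the total read call (-0.35 to -0.15), and the replicate block with 1 surrogate variable lost the T>C call (-0.23, adjusted p = 0.361). The last exon of TRIAP1 lies over another coding gene on the opposite strand.

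AEN (chromosome 15, 88621337 to 88632281, plus strand) had 2811, 2682 and 2860.2 normalized T>C reads in the 0h samples, 2789, 3016 and 2224 at 3h, and 2275, 2270.1 and 2085 at 24h. The 24h samples were below those of 0h, while 3h spanned both. T>C reads fell by 0.26 (SE 0.092, adjusted p = 0.0934). The call was lost without each culture in turn (-0.27 to -0.19) and with the replicate block and 1 surrogate variable (-0.25, adjusted p = 0.283). Total reads of AEN were 3053, 3152 and 3260.1 at 0h, 2731, 3250.4 and 2630.4 at 3h, and 2633, 2824 and 2684 at 24h. Their difference of -0.21 (SE 0.0884, adjusted p = 0.108) just missed the threshold, and edgeR called it (-0.22, adjusted p = 0.0972). TP53INP1, which promotes death through autophagy, went the other way in T>C reads at 24h (0.62, SE 0.291, adjusted p = 0.302) without being called. PHLDA3, an inhibitor of AKT, stood at 0.00 (adjusted p = 0.996).

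The role of metabolism, redox control and secreted signals held 5 members. None was called in T>C reads, and in total reads at 24h 2 rose and 1 fell (60.0%, beside 15.0% of all genes called). None of these 3 was called without the 3h library of S9CC13_R6. GDF15 (chromosome 19, 18374731 to 18389176, plus strand), a stress-induced secreted factor of the TGF-beta family, had 89.8, 100.1 and 91.4 normalized total reads at 0h, 117, 123 and 124 at 3h, and 127, 180.0 and 139 at 24h. The 3 groups did not overlap in total reads. The rise at 24h was 0.65 (SE 0.223, adjusted p = 0.0404), or 1.56-fold, and the difference at 3h was 0.37 (SE 0.216, adjusted p = 0.74). Normalized T>C reads of GDF15 were 46.9, 48.4 and 43.4 at 0h, 46.3, 57.2 and 63 at 3h, and 76.8, 94.5 and 63 at 24h. Their difference at 24h, 0.72 (SE 0.311, adjusted p = 0.235), was as large, with a wider error, and edgeR called it (0.73, adjusted p = 0.0973). Each fit without 1 culture lost the total read call (0.48 to 0.79), as did the replicate block with 1 surrogate variable (0.72, adjusted p = 0.161).

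TIGAR (chromosome 12, 4307763 to 4360028, plus strand), a phosphatase that lowers glycolytic flux, had 338, 406 and 334 normalized total reads at 0h, 361, 405 and 415 at 3h, and 422, 494 and 506 at 24h. The 24h group stood above both others. Total reads rose by 0.34 (SE 0.131, adjusted p = 0.0793). T>C reads were 161, 189 and 169.9 at 0h, 143, 194 and 237 at 3h, and 221, 248 and 273 at 24h, and their difference of 0.35 (SE 0.171, adjusted p = 0.342) was called only with the replicate block (0.51, adjusted p = 0.0927). The total read call was lost without any 1 culture (0.21 to 0.33) and with the replicate block and 1 surrogate variable (0.30, adjusted p = 0.394). A readthrough gene shares the last exon of TIGAR on the same strand, and how its reads were counted was not stated.

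FDXR (chromosome 17, 74862497 to 74873031, minus strand), which passes electrons to mitochondrial cytochromes, had 559, 493 and 577 normalized total reads at 0h, 569.6, 582 and 525 at 3h, and 386, 453 and 325 at 24h. Only the 24h samples were low. Total reads fell by 0.42 from 0h to 24h (SE 0.134, adjusted p = 0.0203) and had a log2 fold change of -0.42 from 3h to 24h (SE 0.143, adjusted p = 0.0704). The first call was lost without S9CC13_R6 (-0.07, adjusted p = 1) and S9CC47_R6 (-0.46, adjusted p = 0.71), and the second in each fit without 1 culture (-0.59 to -0.18). With the replicate block and 1 surrogate variable both were lost (-0.32, adjusted p = 0.346, and -0.30, adjusted p = 0.745). Although the fit without S9CC13_R6 gave -0.07, normalized total reads fell from 493 to 453 in S9CC47_R5 and from 577 to 325 in S9CC47_R6. T>C reads were sparse, at 76.1, 59.3 and 60.2 at 0h, 82, 55.4 and 39.7 at 3h, and 56.9, 47.8 and 25.9 at 24h, and were not called (-0.31, SE 0.318, adjusted p = 0.782). SESN1, a sestrin that restrains mTORC1, and TP53I3, a quinone reductase, lay between -0.03 and 0.11 in T>C reads at 24h.

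DNA repair and nucleotide supply were represented by XPC and DDB2, which recognise ultraviolet lesions, POLH, a polymerase that reads past them, and RRM2B, the p53-inducible subunit of ribonucleotide reductase. None of the 4 was called in any contrast. Their log2 fold changes at 24h ran from -0.45 (POLH, SE 0.349) to 0.02 (XPC, SE 0.153) in T>C reads and from -0.15 to 0.21 in total reads.

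From 3h to 24h, 3 members were called in total reads, PLK2 higher and SPATA18 and FDXR lower, with 5.39% of all genes called in that contrast. edgeR also called 3, and without the 3h library of S9CC13_R6 the count was 2, PLK2 and SPATA18. With the replicate block CCNG1 (0.47, adjusted p = 0.0177) and TRIAP1 (-0.27, adjusted p = 0.0965) joined these 3. Without S9CC13_R6 no member was called, without S9CC47_R5 only PLK2, and without S9CC47_R6 none of the same 3 but CCNG1, PPM1D and TNFRSF10B. The contrasts of 24h with 0h and with 3h share the 24h samples.

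**Figure D3:**
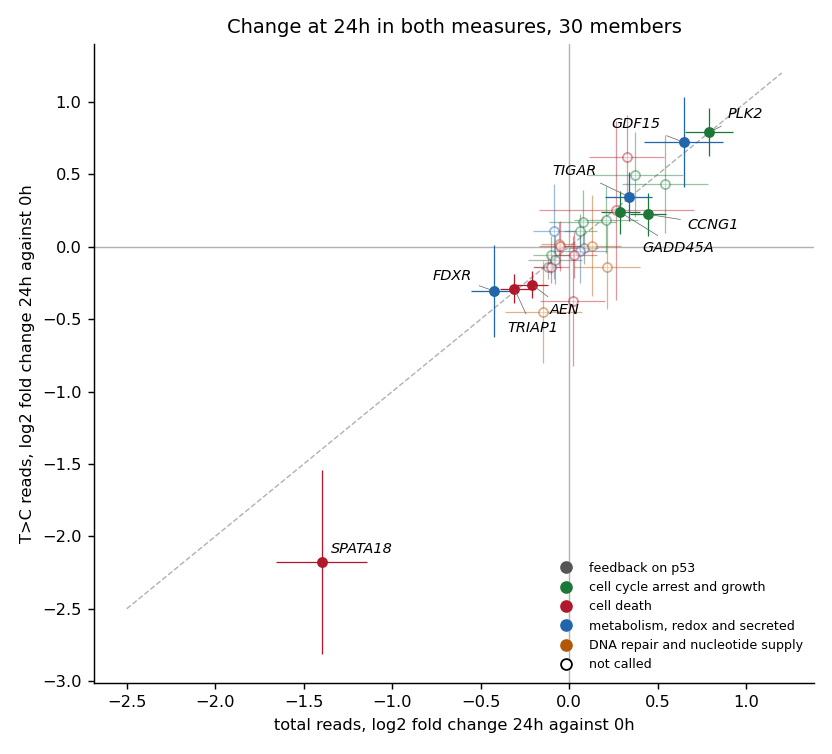
Log2 fold change at 24h against 0h in total reads (x axis) and T>C reads (y axis) for the 30 members, with bars for the SE; filled points were called in at least 1 of the measures, and the dashed line marks equal change. SPATA18 lies far below the others at -1.40 and -2.18, PLK2 sits on the line at 0.79 in both, and the remaining called members lie between -0.42 and 0.72. Because T>C reads are part of total reads, the axes are not independent.

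Whether a member changed more in T>C reads than in unconverted reads of the same library was tested. Unconverted reads are not all older RNA, since a read of new RNA may hold no conversion. No member was called at 3h, where 0.320% of 11561 genes were, nor at 24h, where 0.0173% were, and edgeR called 0 at both times, as did the fit without the 3h library of S9CC13_R6. SPATA18 had an unadjusted p under 0.05 at 3h, when its T>C reads stood lower relative to unconverted reads by a log2 ratio of -1.02 (SE 0.518, adjusted p = 0.999). At 24h AEN did (-0.49, SE 0.150, adjusted p = 0.616), and so did TP53INP1 in the other direction (0.74, SE 0.374, adjusted p = 1). Of all 11561 genes, 487 did at 3h and 484 at 24h. For PLK2 the value at 24h was 0.19 (SE 0.225), so its rise in T>C reads did not differ detectably from that in unconverted reads. CCNG1 stood at -0.28 (SE 0.144, adjusted p = 1). At 3h 23 of 30 members were below 0 in this ratio, beside a median of 0.00 over all genes, and without the 3h library of S9CC13_R6, with its low T>C share, 19 of 30 were.

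Before dTAGV-1, the members differed widely in the share of their reads that carried a conversion. This share rises with the turnover of an RNA, since a short-lived transcript is replaced within the labelling time, and also with the number of T bases in the sequenced stretch. At 0h the median share of the 29 members with at least 50 total reads was 46.6%, beside 27.0% for all 10621 such genes, whose quartiles were 16.7% and 40.6%. Of these members, 22 lay above the median of all genes, 19 above the upper quartile and 3 below the lower quartile. A share at or above percentile 95 of all genes was found in 7 members, AEN, PPM1D, CCNG2, BTG2, BBC3, PLK3 and CDKN1A. These are descriptions with no test.

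AEN had the highest share, 89.2%, 90.3% and 89.2% in the 3 cultures at 0h, at percentile 99.9 of all genes. It stayed between 85.4% and 89.1% at 3h and between 86.2% and 88.0% at 24h. Most AEN reads thus carried a conversion at every time, and its total and T>C reads are largely the same reads. PPM1D followed with 71.0%, 79.6% and 80.4%, then CCNG2, an unconventional cyclin that slows the cycle, with 69.5%, 84.4% and 64.7%. BTG2 had 75.4%, 70.2% and 64.9%, on a mean of only 89 total reads, and BBC3 had 64.4%, 71.3% and 71.4%. The means of PPM1D, CCNG2, BTG2 and BBC3 were 77.0%, 72.9%, 70.1% and 69.1%, and their cultures overlapped (SD 3.99 to 10.3 percentage points), so these 4 have no order beyond the spread. PLK3 (63.8%) and CDKN1A (62.8%) came next, and MDM2 stood at 51.3% ± 5.82 (SD, n = 3).

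At the low end were TP53I3 (6.31% ± 1.51), BAX (10.1% ± 1.41) and FDXR (12.2% ± 1.38), an oxidoreductase, a pore-forming death protein and a mitochondrial enzyme. CCNG1, called in total reads but not in T>C reads, had a share of 19.3% ± 2.32. The last 250 bases of the TP53I3 transcript hold 37 T bases, fewer than nearly all genes (percentile 0.6), and among genes with a like number of T its share was at percentile 23.2. AEN and BBC3 have 73 and 69 T bases there, below the median of 80 over all genes, so their high shares did not go with many T bases. Over the 29 members, Pearson's r of T count with share was 0.29 and Spearman's rho 0.22, and over all genes rho was 0.38. These values describe genes read in the same libraries. T>C bases that come from sequence variants or sequencing error were not measured here, since no library without 4sU was used.

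**Figure D4:**
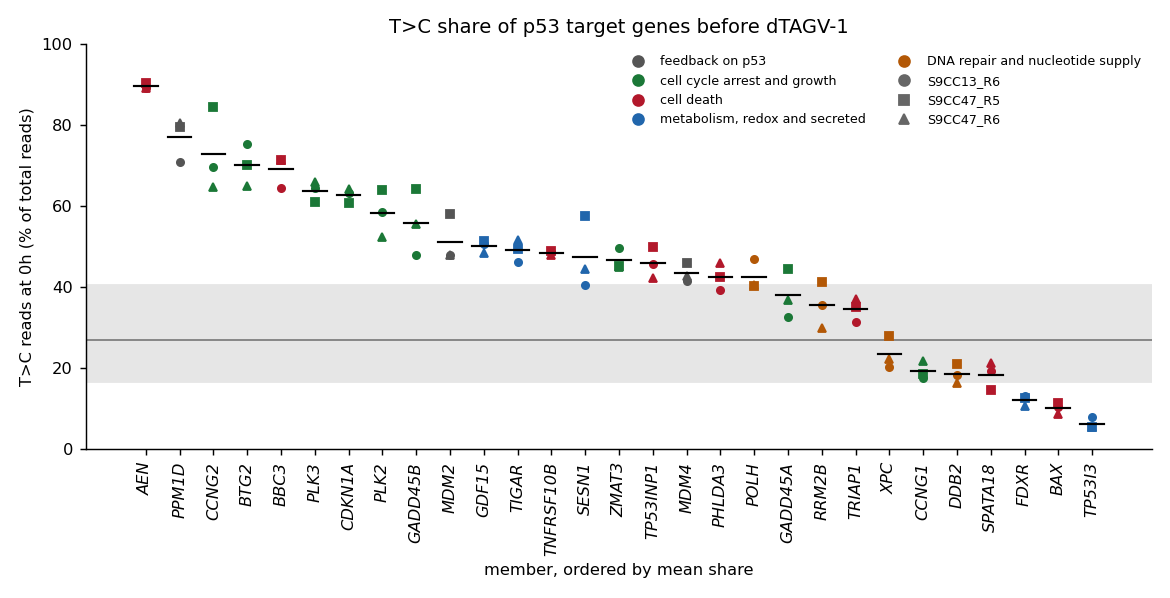
T>C reads as a percent of total reads at 0h (y axis) for the 29 members with at least 50 total reads, ordered by mean; symbols mark the 3 cultures, colours the role, short black lines the mean. The grey band spans the quartiles of all genes (16.7% to 40.6%) and the grey line their median (27.0%), and 19 members lie above the band.

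Other genes of the pathway were examined from a list written with the members. Of 50 further p53 targets, 40 were tested in T>C reads. None was called at 3h, beside 1.79% of all genes. An unadjusted p under 0.05 was reached there by 5, beside 882 of 12037 genes, and edgeR called 1. At 24h 2 rose and 1 fell (7.5%, beside 4.98% of all genes). SERTAD1, a cyclin-dependent kinase regulator, rose by 0.78 (SE 0.261, adjusted p = 0.0682), TNFAIP8, a death regulator, by 0.42 (SE 0.145, adjusted p = 0.0877), and TRAF4, a signalling adaptor of neural crest and epithelia, fell by 0.41 (SE 0.125, adjusted p = 0.0312). In total reads at 3h 1 of 39 was called, PRDM1, a transcriptional repressor, lower by a log2 fold change of -2.24 (SE 0.599, adjusted p = 0.0156) on a mean of 22.7 reads. In total reads at 24h 3 of 39 rose and 3 fell (15.4%, beside 15.0% of all genes). Without the 3h library of S9CC13_R6 none of these targets was called in T>C reads at either time or in total reads at 3h, and 2 were called in total reads at 24h. SOX9, whose protein is degraded, rose as a transcript in T>C reads, by 0.77 after 3h and 1.15 after 24h. The protein level of p53, by which the pathway is mainly controlled, was not measured.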

How the data were processed

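SLAM-seq libraries of 9 samples, in 3 groups of 3, were analysed. The authors deposited raw counts per gene symbol in 2 tables, total reads and T>C reads, made with slamdunk from the first read of 3' end libraries after trimming of adapters and poly(A). These counts are not normalized, and since the sources used here state no molecular identifiers, PCR copies may be counted. The submitters' processing notes name hg38. All 18 value columns were used. Genes were located by symbol in GENCODE release 44 (hg38), and 18451 of 18970 symbols matched directly.

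Following the study's methods, genes of the coding class that reached 1 CPM in 3 or more samples were fitted with DESeq2 1.42.0 in R 4.3.3. The terms were time, batch of differentiation and 1 surrogate variable (sva 3.50.0), and independent filtering was off. Benjamini-Hochberg adjustment ran over all genes tested, and a gene was called at an adjusted p under 0.1. Counts were normalized by the size factors of DESeq2, and log2 fold changes are the fitted values. T>C reads were also set against unconverted reads (total minus T>C) with terms for sample, conversion, conversion by batch and conversion by time. edgeR 4.0.16 and the settings described in the closing section were alternatives. The samples come from 3 cultures of 1 cell line, and p-values measure only the spread between them. The main fits of T>C reads and of T>C against unconverted reads were tested on simulated counts. The fit of total reads and the alternative settings were not.

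The cultures pair samples across times by the clone and batch in the titles. Deviations from group means correlated within cultures by 0.131 on average in T>C reads (0.0169 to 0.286, 9 pairs) and by 0.273 in total reads (-0.0566 to 0.606). Values of the replicate block are given where they change a call, as for PLK2 between 3h and 24h in T>C reads (0.53).

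The members and gene lists were chosen with earlier results of these data known. Members named with all samples are MDM2, CDKN1A, MDM4, every member called in T>C or total reads and the 5 with the highest T>C share at 0h, and from other lists at most the 4 called genes with the largest change in T>C reads. The list of upstream regulators, and the total reads of the genes repressed through p21, are not reported here.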

Additional observations from a re-analysis of the deposited data

Results flagged for a closer look

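The effects at 24h and 3h differed for 3 members in total reads, by the contrast of the 2 times itself (DESeq2, adjusted p under 0.1). PLK2 was higher at 24h than at 3h (0.6108 on the log2 scale, adjusted p = 0.00182), SPATA18 was lower (-1.0951, adjusted p = 0.00431), and FDXR was lower (-0.4227, adjusted p = 0.0704). Each had the same direction in 3 of 3 cultures. FDXR showed no difference at 3h against 0h (0.00, SE 0.126), and PLK2 and SPATA18 stood at 0.18 and -0.30 there. Most of each change in total reads was thus seen after 3h. In T>C reads the contrast of 24h with 3h gave 0.56 for PLK2, -1.03 for SPATA18 and 0.07 for FDXR, none of them called. Against 0h, edgeR gave T>C values at 3h of 0.24 for PLK2, -1.13 for SPATA18 and -0.37 for FDXR, none called. Its T>C values at 24h were 0.80, -2.13 and -0.30 in the same order. For PLK2 most of the fitted T>C change thus also came after 3h. For SPATA18 and FDXR the 3h values were not called, so a difference in timing between the measures was not shown.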

How the results depend on the processing

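Among T>C reads at 24h (4 members called), the replicate block with 1 surrogate variable, an adjusted p under 0.05 and size factors from total reads gave 2 each, and a mean of at least 20 counts and leaving out the 3h library of S9CC13_R6 (chosen after seeing the data) gave 1 each. Without 1 culture the count ran from 0 to 1. For 24h against 3h in T>C reads (0 called), edgeR, no surrogate variable, the replicate block, only the 6 samples compared and size factors from total reads gave 1 each, PLK2. In total reads at 24h (8 called), the block with a surrogate variable gave 5, only the 6 samples compared 4, the added setting without the 3h library 2, and leaving out a culture 0 to 4. For 24h against 3h in total reads (3 called), the replicate block gave 5, the block with a surrogate variable 1, and leaving out a culture 0 to 3. The median T>C share at 0h was 46.6% over the 29 members with at least 50 total reads. Over all 30 members it ran from 45.7% to 47.8% without 1 culture. Other counts stayed within 1.5 times the reported ones. CCNG1 in total reads at 24h ranged from -0.0014 to 0.5972 without 1 culture. MDM2 in T>C reads, near 0 throughout, turned sign at 3h with no surrogate variable (-0.008), the replicate block (-0.0083), no covariates (-0.0097), the 6 samples (-0.0076), total size factors (-0.0638) and without the 3h library (-0.0487), and ranged from -0.0724 to 0.0596 without 1 culture. At 24h its values were 0.0099, 0.0091, 0.0079 and 0.0099 under the first 4 of these, and -0.0869 to 0.0124 without 1 culture. Of the members called at 24h against 0h none turned sign in T>C reads (4 called), and in total reads (8 called) CCNG1 alone did. Of those not called, 11 of 26 in T>C reads and 12 of 22 in total reads turned sign in at least 1 setting, PPM1D among them in both. PLK2 at 24h kept its call in 15 of 17 settings in T>C reads and in 15 of 16 in total reads. The cause of these shifts was not tested.

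With 3 cultures and 3130673 T>C reads in the smallest library, members with few T>C reads had wide errors at 24h, with SEs of 0.633 for SPATA18, 0.618 for FAS and 0.449 for BAX. AEN, by contrast, had an SE of 0.092.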

Other observations

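Genes that p53 represses by way of p21 and the DREAM complex, which switches off the cell cycle programme, were listed with the members. All 12 were tested. In T>C reads none was called at 3h (0 at an unadjusted p under 0.05, 0 by edgeR) or at 24h (3 at an unadjusted p under 0.05, 1 by edgeR). Of all 12037 genes, 1.79% were called at 3h and 4.98% at 24h, and 882 and 1633 had an unadjusted p under 0.05. At such shares, no call among 12 genes says little about them.

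Across libraries, the median T>C share of the 30 members was 33.4% in the 3h library of S9CC13_R6 and between 42.2% and 52.0% in the other 8.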
